A study of Mus musculus with 8 samples.

Results

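The sites described here are the promoter sites of a KLF1 ChIP-seq consensus peak set at which the mutant protein KLF1-E339K was counted and wild type KLF1 was at the lowest value listed. They were chosen by 2 measured values: a wild type concentration of -0.09, the minimum of its column, and a midpoint no farther than 1000 bp from the closest annotated transcription start site. The rule took 469 of the 5551 consensus sites (8.45%), 21.4% of the 2190 sites within 1000 bp of a start and 32.9% of the 1424 sites at the wild type minimum. The cells were K1 cells, an immortalized erythroid line from Klf1-null mouse fetal liver, so every line lacked endogenous KLF1. K1-E339K-ER cells carried the mutant (CDA-KLF1) fused to an estrogen receptor domain, expressed from a retroviral vector and moved to the nucleus by 200 nM 4-OHT for 3 h. Its ChIP library and input came from clone 2A, by the labels from 3 pooled replicates. The wild type values came from K1-ER cells, with wild type KLF1 in the same form, whose libraries were not analysed here. For nascent RNA, 4sU-labelled RNA was read in 3 libraries of K1 cells (2 with 4-OHT and 1 with ethanol) and in 3 clones of K1-E339K-ER cells (1B, 2A and 2B) with 4-OHT. The authors' mean levels of nascent RNA used below likely also cover wild type K1-ER libraries, which are not among these samples.

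KLF1 is the erythroid member of the KLF/SP family. Its 3 zinc fingers read a G-rich strand, the complement of the CACCC box, and each finger contacts a base triplet. The glutamate changed in this mutant lies in the second finger, which reads the central triplet, and the equivalent human change causes congenital dyserythropoietic anemia type IV. In red cell precursors wild type KLF1 acts at promoters and enhancers of globin, heme synthesis and membrane genes.

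To show what lies under these sites, stretches within the highest members were read from the mm9 genome sequence. Stretches with capitals are centred on the marked match, and those without capitals on the midpoint of the site. In the first set, the 9 capitals mark the match closest to the midpoint to the purine motif, which is any base followed by GGGAGGGG, GGGAGTGG, GGGGGGGG or GGGGGTGG, read on the G-rich strand. Counted from 1 at the first capital, position 5 is A or G in this motif. St6galnac6 and Mbtd1 were the only sites with such a match among the 10 members with the highest mutant concentration. The next 4 members with a match (H1f0, Foxj2, Lrrc4b and Fbxw7) were added after the values were seen. They lie at chr2:32462805-32462865 (minus strand), chr11:93747639-93747665 (plus), chr15:78858337-78858397 (minus), chr6:122770742-122770768 (plus), chr7:51697746-51697806 (minus) and chr3:84619296-84619322 (minus), in this order. Their matches lay 10, 22, 43, 4, 23 and 16 bp from the midpoints. The stretches of Mbtd1, H1f0 and Fbxw7 do not reach the midpoint.
St6galnac6: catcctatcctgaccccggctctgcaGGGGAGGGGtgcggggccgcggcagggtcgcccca
Mbtd1: ccctgctcgCGGGGGGGGagggggcgc
H1f0: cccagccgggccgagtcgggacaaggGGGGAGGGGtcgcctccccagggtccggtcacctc
Foxj2: gtagcaggcAGGGGGTGGggggtgtgc
Lrrc4b: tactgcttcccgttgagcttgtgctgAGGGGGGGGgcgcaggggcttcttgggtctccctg
Fbxw7: ggctggggcGGGGAGGGGgcgccgaga

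The members with the next highest mutant concentrations after St6galnac6 held neither this motif nor the pyrimidine motif, and their plus strands are shown for that reason. They are Cd47 at chr16:49856165-49856225 and Arhgef2 at chr3:88425639-88425699.
Cd47: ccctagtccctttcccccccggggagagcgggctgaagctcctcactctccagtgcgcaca
Arhgef2: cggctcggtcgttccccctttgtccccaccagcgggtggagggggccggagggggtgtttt

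As a contrast, 2 promoter sites are shown at which the mutant was at the lowest value of its own column. Their capitals mark the pyrimidine motif, any base followed by GGGCGGGG, GGGCGTGG, GGGTGGGG or GGGTGTGG, in which position 5 is C or T. They are Ifngr2 at chr16:91547055-91547115 (plus) and Gm10433 at chr12:101425974-101426034 (minus). Both were chosen, in order of wild type concentration, from sites of this kind that hold the pyrimidine motif. Of the 27 promoter sites with the mutant but not wild type at its minimum, 18 held it.
Ifngr2: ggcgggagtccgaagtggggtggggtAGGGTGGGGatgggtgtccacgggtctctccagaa
Gm10433: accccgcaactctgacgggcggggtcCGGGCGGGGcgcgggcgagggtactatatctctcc

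The concentration is the log2 of the mean normalized read count of a protein at a site, as the authors deposited it, with 1 pooled value per protein and no replicate spread. Wild type values up to 3 could be placed on steps of 1 read, as the mean of 2 read sets with a minimum of 1 read each (2884 of 2884 sites, within 0.006 on the log2 scale), by which the lowest value would stand for at most 2 reads in all. The upper 95% Poisson limit of 2 reads is 7.22 reads, which would be a wild type concentration of 1.76. Mutant values up to 1 could be placed on the steps of 2 read sets of unequal scale (410 of 410 sites). The 2 scales were fitted to place the most sites on steps, so this count is no test of them. By these scales the median member would rest on between 69.6 and 130 mutant reads. What these read sets were is not given in the sources used here, and the limits cover counting error only.

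Mutant concentration of the members had a median of 5.12, with quartiles of 4.68 and 5.70 and a maximum of 8.26. A Poisson interval for the median member, at the lower inferred count of 69.6 reads, runs from 4.76 to 5.46. The 955 sites away from promoters that shared the wild type minimum had a median mutant concentration of 5.00, and the 791 promoter sites with some wild type signal and a mutant value at least 1 higher had 5.47. The mutant was at least 1 above wild type at 468 of the 469 members. Of all 5551 sites, 61.5% were past the same difference, and as the members were chosen on the wild type value nothing can be read from that count. The consensus set holds peaks called for either protein, so a site at the wild type minimum would enter it mainly by a mutant peak. Mutant values well above the minimum were thus largely a condition of entry. The plot of wild type against mutant concentration shows the members as a single column at the wild type minimum.

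**Figure D1:**
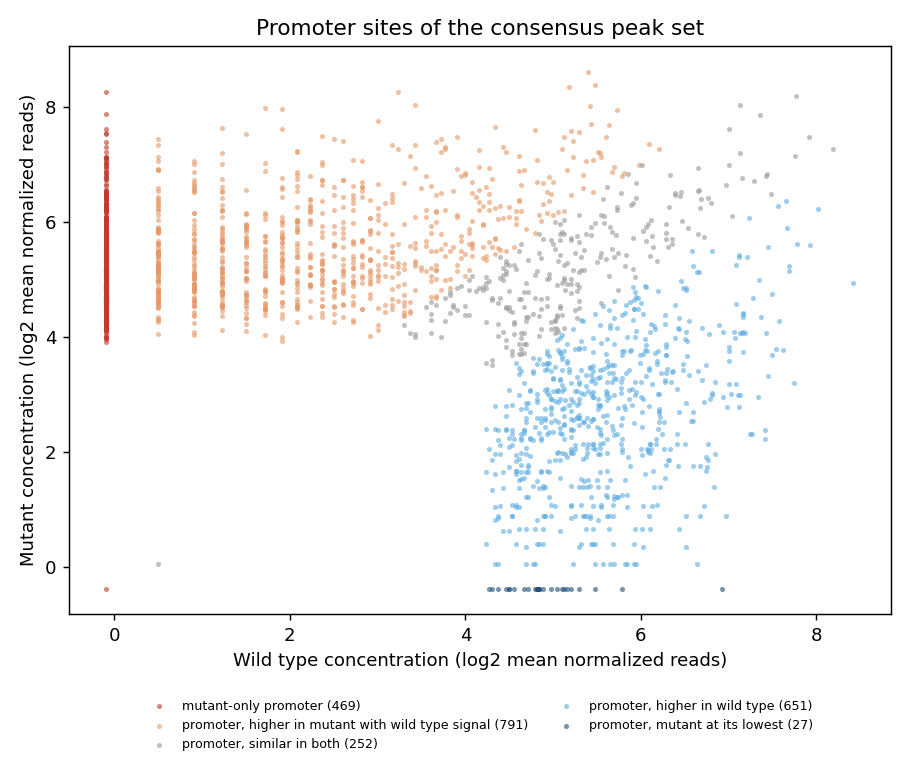
Mutant against wild type concentration (both log2 mean normalized reads) for the 2190 promoter sites, each point 1 site, colored by class. The 469 members form the column at -0.09, and all but 1 of them lie at a mutant concentration of 3.91 or more.

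The exception goes against the description of these sites as bound by the mutant. The site at Hba-a1 (chr11:32196262-32196573), 1 of the duplicated adult alpha globin genes, had a mutant concentration of -0.38, the minimum of the mutant column, beside its wild type value of -0.09. Its central 101 bases occur 2 times on chromosome 11, whereas those of the other 468 members occur once on their chromosome, and the authors removed reads that map to several places. The part this plays in the value was not tested. The next lowest members were Dnajb4 at 3.91, Phf21a at 3.96 and Dtx2 at 3.98.

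The limits of the rule cut through continuous values. The members just inside 1000 bp were Mepce at 998 bp, Syne3 at 992 bp and Sall2 at 985 bp, with mutant concentrations of 5.91, 4.83 and 4.28. Just outside were sites at Tsc22d4 (1001 bp), AK010878 (1016 bp) and Atxn7 (1026.5 bp), with 7.45, 4.42 and 4.67. A further 98 promoter sites had the second lowest wild type value of 0.50, with a median mutant concentration of 5.25. The highest of these were at Adnp, Setd1b and Gtf2i, at 7.44, 7.34 and 7.12.

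The 10 members with the highest mutant concentration ranged from 7.13 to 8.26, and 7 of them lay in introns. St6galnac6, a sialyltransferase of ganglioside synthesis, had the highest value (8.26; chr2:32462620-32463031), in an intron 344.5 bp downstream of its start. B4galnt1, which makes the gangliosides GM2 and GD2, had 7.38 (chr10:126603191-126603600, intron). Cd47 encodes the surface protein by which red cells signal to macrophages not to engulf them, and its site had 7.88 (chr16:49855940-49856450, intron).

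Arhgef2, a microtubule-bound activator of RhoA, had a mutant concentration of 7.62 (chr3:88425511-88425827, intron). Ube2h, a ubiquitin-conjugating enzyme, had 7.55 (chr6:30253678-30254106, intron), and Mbtd1, a subunit of the TIP60 acetyltransferase complex, had 7.52 (chr11:93747402-93747859, 5′ untranslated exon). These values are descriptions of the choice by rank. The others were Slc9a3r2 (7.30), a scaffold of membrane transporters, Skil (7.21), a repressor of SMAD signalling, Ankrd34a (7.13) and Rapgefl1 (7.13). All 10 midpoints lay downstream of the start, by 55 to 751 bp.

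Downstream places were frequent among the members as a whole. The deposited distance has a sign on the chromosome rather than on the gene: for members whose gene is in GENCODE M1, it was within 2 bp of start minus midpoint at 286 of 450 and of midpoint minus start at 2. After turning it by the strand of the gene, 295 of 469 members (62.9%) lay downstream of the closest start and 174 (37.1%, 95% Wilson interval 32.8 to 41.6%) upstream. The median member lay 229 bp downstream, with quartiles at 93.5 bp upstream and 502.5 bp downstream.

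The other promoter classes had larger upstream shares. Of the 791 promoter sites with wild type signal and a higher mutant value, 47.9% (44.5 to 51.4%) lay upstream, and of the 252 sites with less than 1 between the proteins 62.3% (56.2 to 68.1%). Of the 651 sites at least 1 higher in wild type, 69.4% (65.8 to 72.8%) lay upstream, and their median midpoint was 66 bp upstream. Within 500 bp of a start the upstream shares were 44.7% for 318 members and 74.5% for 548 sites higher in wild type. The side of the start was not part of the rule, and the intervals of these shares cover sampling of sites only.

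**Figure D2:**
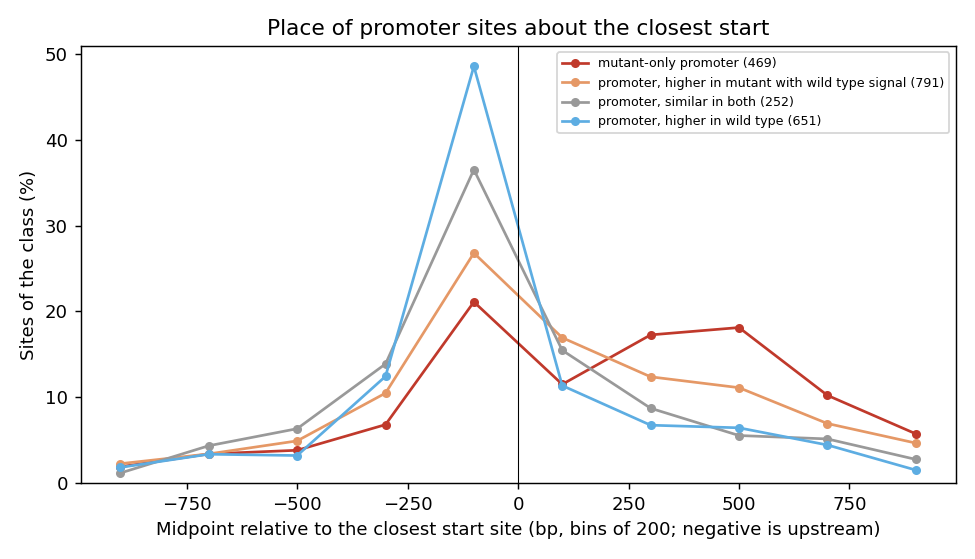
Share of each class of promoter sites (vertical axis, percent) by the place of the midpoint relative to the closest start (horizontal axis, bins of 200 bp, upstream negative). Of the members 21.1% lay in the 200 bp upstream 17.3% from 200 to 400 bp downstream and 18.1% from 400 to 600 bp downstream, whereas 48.5% of the sites higher in wild type lay in the 200 bp upstream.

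By GENCODE M1 annotation of the midpoint, 226 members (48.2%) lay in introns, 101 (21.5%) between genes, 90 (19.2%) in 5′ untranslated exons, 33 (7.04%) in coding exons, 16 (3.41%) in non-coding exons and 3 in 3′ untranslated exons. Of the 295 downstream members 184 lay in an intron. Annotated starts on both strands lay within 1000 bp of 69 members (14.7%). The closest gene was protein-coding for 436 members. The median width of the members was 328 bp, in a range from 303 to 933 bp.

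The purine motif was found within 50 bp of the midpoint in 205 of 469 members (43.7%, 95% Wilson interval 39.3 to 48.2%). The pyrimidine motif was found in 81 (17.3%, 14.1 to 21.0%), and 47 members held both. Both strands were searched and overlapping matches were kept. The study derived the purine motif from its mutant peaks and the pyrimidine motif from its wild type peaks. The shares and places of matches given here are therefore descriptions and not independent support for a preference. The purine share was lower, and the pyrimidine share higher, in the other classes of promoter sites. The purine motif was in 40.8% (37.5 to 44.3%) of sites with wild type signal and a higher mutant value, an interval that overlaps that of the members. It was in 25.8% of sites similar in both and 14.0% of sites higher in wild type. It was also in 1 of the 27 sites at which the mutant was at its minimum while wild type was not. The pyrimidine motif was in 28.1%, 41.7%, 60.1% and 66.7% of these classes.

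Windows of the same length show how common these letters are near starts. In the 938 windows 200 to 300 bp to either side of the members' midpoints, the purine motif was in 11.2% and the pyrimidine motif in 12.7%. Around the starts of 22350 annotated protein-coding genes the shares were 8.35% and 16.6%. The pyrimidine share of the members, 17.3%, was thus close to that of all coding starts. Over 300 bases, 67.0% of the members held the purine motif beside 22.6% of 32851 RefSeq promoters (GRCm38.p6), and 40.3% the pyrimidine motif beside 29.7%. A match is a description of letters and not a test of binding.

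**Figure D3:**
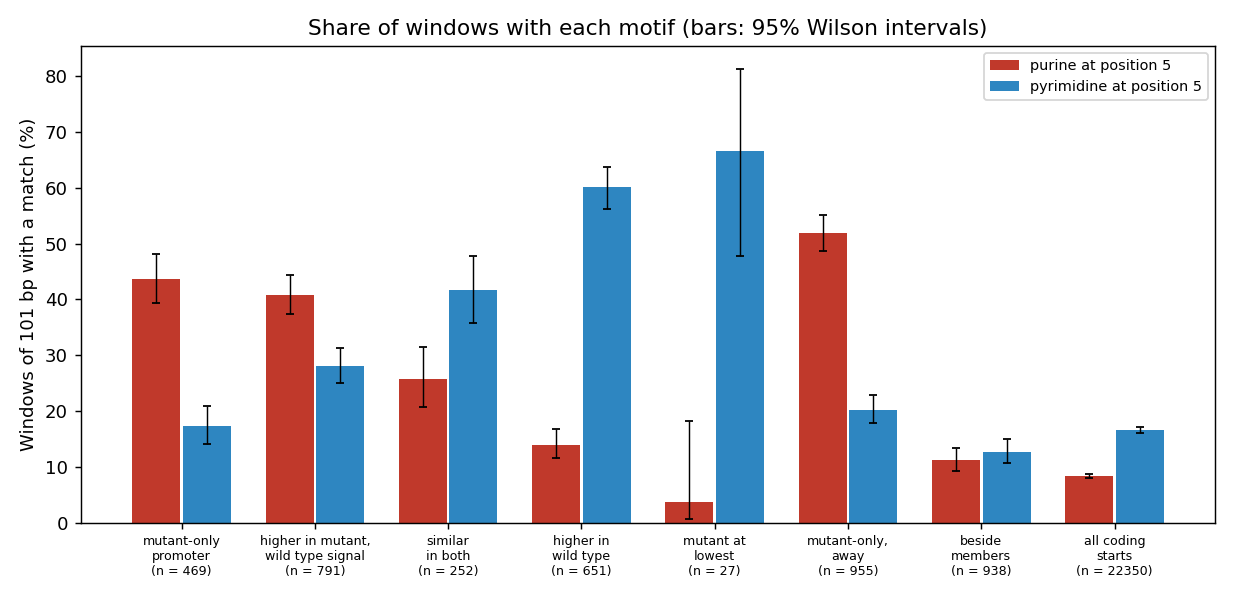
Percent of 101 bp windows with the purine motif (red) and the pyrimidine motif (blue) in classes of sites, in windows beside the members and at all annotated protein-coding starts, with 95% Wilson intervals as error bars. The purine share is 43.7% in the members and 14.0% in promoter sites higher in wild type, and the pyrimidine share 17.3% and 60.1%.

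Matches to the purine motif were densest at the midpoints of the members. In the 20 bp around the midpoint there were 20.04 purine matches per kb, against 2.24 to 3.52 in the outermost bins about 140 bp away. The closest purine match of the 205 members with one lay a median of 13 bp from the midpoint, and 141 (68.8%) had one within 20 bp. The pyrimidine motif reached 3.62 matches per kb at the members' midpoints. At promoter sites higher in wild type it was the pyrimidine motif that was densest at the midpoint, with 16.3 per kb, and the purine motif had 2.23. Of the 119 members with a single purine match, 65 (54.6%) had the G-rich strand on the strand of the closest gene.

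**Figure D4:**
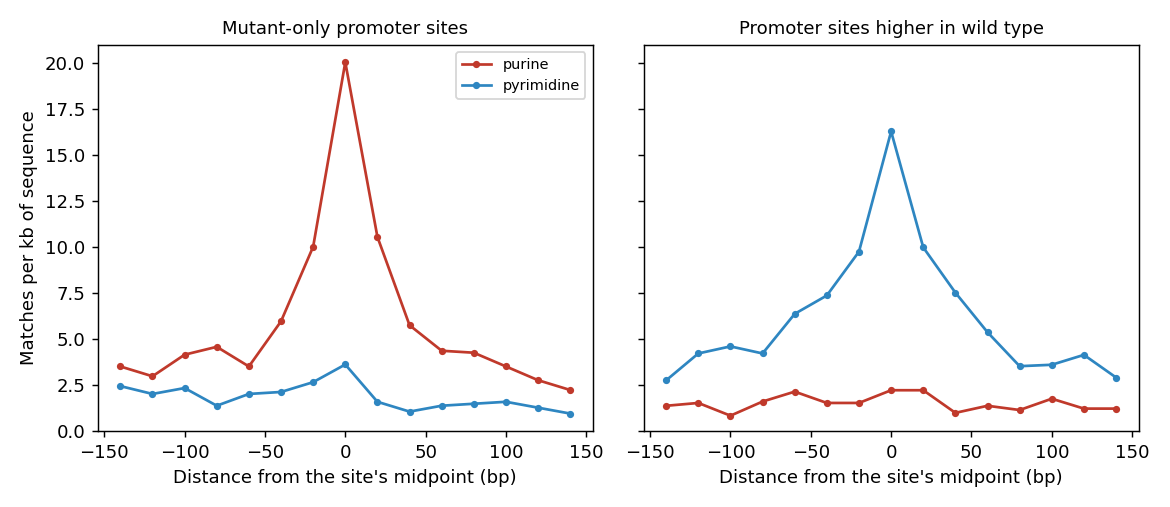
Matches per kb (vertical axis) of the purine (red) and pyrimidine (blue) motif in bins of 20 bp by distance from the midpoint, for the members (left) and for promoter sites higher in wild type (right). The purine motif reaches 20.04 per kb at the members' midpoints, and the pyrimidine motif 16.3 per kb at those of the other class.

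Position 5 was most often G. Among 567 matches with any base there, 363 (64.0%) had G, 108 (19.0%) A, 49 (8.64%) C and 47 (8.29%) T. Runs of G hold overlapping matches, so counts by site are also given. The letters GGGAGGGG were in 89 members (19.0%), GGGGGTGG in 72 (15.4%), GGGGGGGG in 71 (15.1%) and GGGAGTGG in 12 (2.56%). Among promoter sites higher in wild type, C stood at position 5 in 64.5% of 738 matches and G in 4.74%, and GGGGGGGG was in 3 of 651 sites. GGGAGGGG was in 21.4% of promoter sites with wild type signal and a higher mutant value and 17.5% of those similar in both, shares near that of the members.

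Members with and without a purine match had near values of mutant concentration. The purine share was 44.1%, 41.0%, 48.7% and 41.0% in 4 groups of equal size taken in order from the lowest to the highest mutant concentration. The median mutant concentration was 5.10 in the 264 members with no purine match, 5.17 in the 119 with 1, 5.18 in the 34 with 2 and 5.06 in the 52 with 3 or more. The 34 members with a pyrimidine match and no purine match had a median of 4.85. The plot of mutant concentration by position shows the members with and without a match over the same range of values and on both sides of the start.

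**Figure D5:**
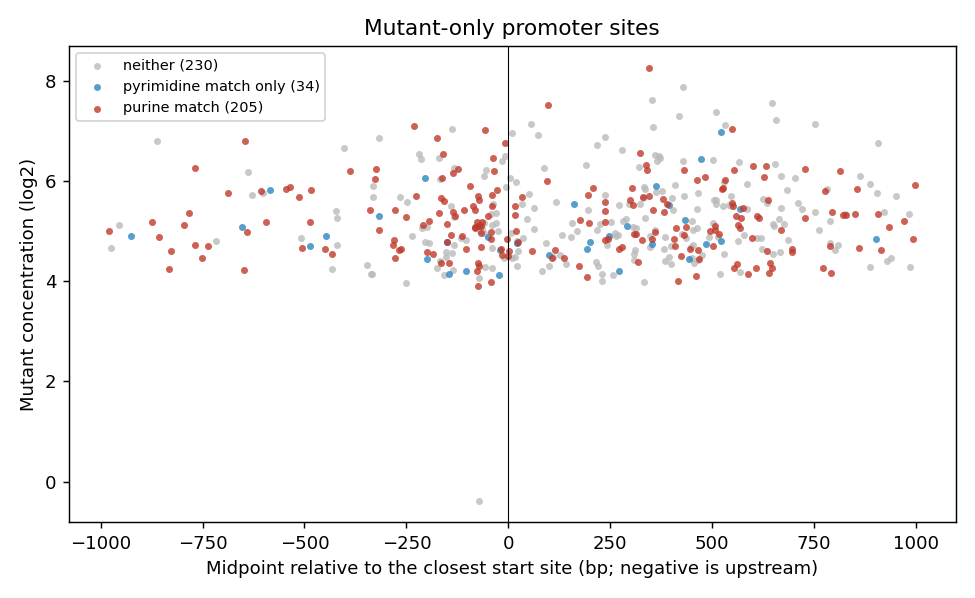
Mutant concentration (vertical axis, log2) of each of the 469 members by its place relative to the closest start (horizontal axis, bp, upstream negative), with members that hold a purine match in red (205), a pyrimidine match only in blue (34) and neither in gray (230). Colors mix over the whole range, and the lowest point, at -0.38, is the site at Hba-a1.

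The members without either motif were 230 (49.0%), among them 8 of the 10 with the highest mutant concentration. When mismatches were allowed, the best approach of these 230 to the purine motif had 1 mismatch in 191 (83.0%) and 2 in 39. Of the 229 promoter sites higher in wild type that held neither motif, 145 (63.3%) had 1 mismatch and 82 had 2, so that letters 1 mismatch away were common in both classes. The windows beside the members, with or without a motif, had 1 mismatch in 424 of 938 and 2 in 351. In the 230 members with neither motif, the most common 8 letters were GGGAGGAG, in 43 (18.7%), which were in 3.62% of the windows beside the members. These words were ranked after the sequences were seen and were not tested.

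Members were GC-rich and had intermediate CpG content. Over 300 bp around the midpoint the median GC content was 65.7%, and the observed to expected ratio of CpG was 0.63 (quartiles 0.41 and 0.78). Promoter sites higher in wild type had 64.7% and 0.69, and all annotated protein-coding starts 58.0% and 0.60. A GC content of at least 55% with a CpG ratio of at least 0.65 was found in 213 members (45.4%), 58.2% of promoter sites higher in wild type and 42.8% of all coding starts. The mutant-only sites away from promoters had 56.7% GC and a CpG ratio of 0.18, so that the members shared their wild type minimum and purine matches (51.9% of those sites) but not their CpG content.

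Members were unevenly spread over chromosomes. Chromosomes 7 and 11 held 62 and 59 members, which were 30.7% and 26.5% of their promoter sites in the consensus set, whereas chromosome 4 held 16, or 11.8%. On the X chromosome 15 members made up 28.3% of 53 promoter sites, but there were 16.1 members per 1000 of its protein-coding genes. The same rate was 29.9 on chromosome 7, 35.7 on chromosome 11 and 11.8 on chromosome 4.

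The 469 members had 441 closest genes. Atxn1, the gene of spinocerebellar ataxia type 1, had 3 members, at 776.5 and 308 bp downstream and 447.5 bp upstream of its start, with mutant concentrations of 5.79, 4.94 and 4.89. A further 26 genes had 2 members each. H1f0, the linker histone of differentiated cells, had sites of 7.09 and 4.97, 231.5 and 641 bp upstream. Phf12, a subunit of a SIN3 corepressor complex, had 6.62 and 5.69, and Phf21a, which binds unmethylated histone H3 in a corepressor complex, had 6.80 and 3.96. Other pairs lay at Aes, Brpf3, Fxr2, Kdelr1, Nr2f1, Pde4a, Sall2, Senp7 and Zfx.

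Of the 441 genes 159 (36.1%) were also the closest gene of another consensus site outside the member set. These included a mutant-only site away from promoters for 54 genes and a site at least 1 higher in wild type for 48. At 8 genes a member and a site higher in wild type both lay within 1000 bp of a start, though not always the same start. At Lmna, which encodes lamins A and C of the nuclear envelope, the member (chr3:88307174-88307763) had a mutant concentration of 6.43. Another site at a different Lmna start (chr3:88296285-88296596) had 6.60 for wild type and 1.76 for mutant. At Gypc, which encodes the red cell membrane protein glycophorin C, the member lay 466 bp downstream of the start (mutant 4.63) and a site 147.5 bp upstream had 5.54 for wild type and 4.2 for mutant. At Mepce, the capping enzyme of 7SK RNA, the member lay 998 bp downstream (5.91), and a site 34.5 bp upstream had 5.08 for wild type and 3.26 for mutant. The others were Acot7, Cd151, D930028M14Rik, Rsbn1 and Sgsm2.

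Of 73 genes in 5 lists of erythroid function 3 (4.11%) had a member, and of 113 chromatin regulators 12 (10.6%) did. The 3 erythroid genes were Gypc, Lmo2 and Hba-a1, and the site at Hba-a1 was at the mutant minimum (-0.38). As a background, 420 of 22147 protein-coding genes counted by their current symbols (1.90%) had a member site, which is 23.3% of the 1803 with any promoter site in the consensus set. None of the 12 heme synthesis genes had one, and 3 of them had a promoter site higher in wild type. None of the 13 genes of iron uptake and storage had a member, and 5 of them had some promoter site. Of 21 red cell membrane and blood group genes Gypc alone had a member, and 5 had a promoter site higher in wild type. Among 19 erythroid transcription factors Lmo2, a bridging subunit of the GATA1 and TAL1 complex, had a member of 5.03, 63.5 bp upstream. Among 29 KLF and SP factors Klf6 had one of 6.26, 134 bp upstream, and of 8 globin genes and chaperones there was only the site at Hba-a1. At a background share of 1.90%, lists as short as those of heme, iron and membrane genes would most often hold none. Nothing is read from their counts. Of all promoter sites 29.7% were higher in wild type, counted by site and not by gene.

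None of the 10 erythroid identity markers, the 9 megakaryocyte markers or the 7 genes listed from the study as targets had a member. With a background share of 1.90%, lists this short would most often hold none, so nothing is read from these counts. Of the 10 erythroid markers 4 had another promoter site, 2 higher in mutant with wild type signal and 2 similar in both. Of the 7 targets 1 had a promoter site higher in wild type. Of 12 myeloid and lymphoid markers 1 had a member. It was Spi1, which encodes the myeloid factor PU.1 and is listed among the sites under its older symbol Sfpi1. Its site of 5.32 (chr2:90936752-90937187) lay 15.5 bp downstream of its start and held a purine match. Of the 113 chromatin regulators 26 had any promoter site. The 12 with a member included Kdm3a, a histone H3 lysine 9 demethylase (6.49), Chd4, the helicase of the NuRD complex (6.30), Ep300, a histone acetyltransferase (6.25), and Suz12, a core subunit of Polycomb repressive complex 2 (5.89). Of the 26 with any promoter site, 1 had one higher in wild type, beside 29.7% of all promoter sites counted by site and not by gene. The counts describe lists chosen with results known, and no list was tested.

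Other lists gave the following counts. Of 379 ubiquitin and proteasome genes 13 (3.43%) had one, among them Ube2h, Fbxw7 (6.85), the substrate receptor for cyclin E and MYC, Fbxl19 (6.76) and Trim8 (6.16). Of 416 zinc finger genes 12 did, led by Zfp395 (7.07), Zfp410 (6.44), which drives Chd4, and Zfp710 (5.62). Of 31 genes of signal receptors and cytokine signalling 3 did: Skil, the insulin receptor substrate Irs1 (6.25) and Stat5b (4.14), a transducer of erythropoietin signals. Of 157 RNA-binding and splicing genes 7 did, led by Hnrnpul1 (5.87), Elavl1 (4.94) and Hnrpdl (4.92).

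Of 348 solute carriers 7 (2.01%) had a member, led by the glucose transporter Slc2a8 (6.45) and the mitochondrial glutamate carrier Slc25a22 (5.99). Of 225 RAB and vesicle genes 8 did, led by Vps37d (6.40), Arfgap3 (5.88) and Vamp8 (5.83). Of 96 E2F and cell cycle genes 3 did: Cdc14a (6.07), Ccng2 (4.28) and Cdc73 (4.13), which despite its name is a subunit of the PAF elongation complex. Of 33 autophagy and survival genes Bcl2, the founding inhibitor of apoptosis, had 6.72 and the autophagy receptor Sqstm1 5.10.

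Of 224 ribosome and translation genes 3 had a member (Eif2c2, Mrpl17 and Eif2ak4, at 5.65, 4.86 and 4.51), a share of 1.34%. Of 122 genes of the respiratory chain and mitochondrial import only Tomm6 did (4.66), of 139 of cytoskeleton and septins Tuba4a (7.11) and Myo9b (5.06), and of 26 of lipid synthesis and uptake Insig2 (4.37).

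Most member genes were transcribed in these cells. Of 441 closest genes 404 (91.6%) were listed among the 11364 genes of the nascent RNA tables, beside 48.5% of 22208 annotated protein-coding genes. The share was 97.3% for promoter sites with wild type signal and a higher mutant value, 91.8% for sites higher in wild type and 72.6% for mutant-only sites away from promoters. The level is the authors' mean log2 CPM over their libraries less the log2 of gene length in kb, since a long gene gathers more reads. The same mean was given for the mutant and for the wild type comparison, so it likely also covers wild type K1-ER libraries. The values are means over lines and so cannot show whether a gene changed with either protein. The median level of the member genes was 1.14 (quartiles -0.07 and 2.45), 0.32 above the median of all listed genes (0.82). Promoter sites higher in wild type had a median of 1.24 at their closest genes. When all listed genes were put into 4 groups of equal size by level, 65 member genes (16.1%) fell in the lowest, 115 (28.5%) in the next, 109 (27.0%) in the third and 115 (28.5%) in the highest.

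The member genes covered nearly the whole range of levels. The highest per kb were Hspa8, a constitutive HSP70 chaperone (7.88), Hnrpdl (5.83), Rcc2 (5.81), Ldha, lactate dehydrogenase A (5.63), and Ampd2 (5.54). The lowest were Srcin1 (-7.38), Irs1 (-6.90), Clip2 (-6.17), Dixdc1 (-6.09) and Col1a1, the main collagen of bone and skin (-5.66). The site at Hspa8 had a mutant concentration of 4.44 and the site at Irs1 6.25. All 10 erythroid identity markers were listed, from Alas2 at 0.75 per kb to Gata1 at 6.68. Of the 9 megakaryocyte markers 3 were listed, from -1.78 to 1.25 per kb, and of the 12 myeloid and lymphoid markers also 3, which were Mpo (-1.57), Adgre1 (-3.27) and Spi1 (-3.86).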

How the data were processed

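Per the labels and the study's methods, ChIP reads (Ion Proton) were mapped to mm9 with TMAP, and duplicate and multi-mapped reads were removed. Peaks were called with MACS2 and GEM and merged. RNA reads were mapped with TopHat2 2.0.10 (submitters' processing notes) and TMAP. The authors deposited DiffBind concentrations as log2 of the mean normalized read count per protein, distances in bp and, for genes, voom's mean log2 CPM and gene length. Columns of the authors' own comparisons (fold changes, t, p-values, FDR) were not used. Library depth is unknown.

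All 5551 sites lay within NCBIM37 (mm9) chromosome lengths. Motifs were searched with Python 3.11.15 and pysam 0.24.0, tested on simulated data (100% of 500 planted motifs found). Genes were matched between tables by length, mean and Entrez identifier, and to sites by symbol or RefSeq synonym. GENCODE M1 gave annotation. Shares have 95% Wilson intervals (scipy 1.17.1), and sites are not replicates. No test was made. Members and lists were chosen with earlier results of these data known. Named sites were the 10 highest by mutant concentration, genes with 2 or more members, up to 4 per list, neighbors of the thresholds and extremes of nascent RNA level. The motif window (25 and 100 bp on each side, whole site), the distance limit (500 and 2000 bp), the wild type limit, a mutant minimum of 5 and the length term were varied.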

Additional observations from a re-analysis of the deposited data

How the results depend on the processing

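The number of members was 318 at a distance limit of 500 bp, 553 at 2000 bp and 632 with wild type values up to 1 above the minimum, and the median mutant concentration stayed between 5.06 and 5.15. The purine share was 30.3% within 25 bp of the midpoint, 58.6% within 100 bp and 69.7% over the whole site, and the pyrimidine share 11.5%, 28.4% and 45.0%, since longer windows hold more letters. With a mutant concentration of at least 5 the shares were 45.4% and 16.0%. G stood at position 5 in 66.8% of matches within 25 bp and 58.0% within 100 bp. The nascent RNA median of member genes was 1.01 above that of all listed genes without the length term and 0.32 with it. Chosen after seeing the data, the upstream share was 44.7% within 500 bp and 36.4% where distances were within 2 bp of GENCODE M1. No replicate could be left out, because each protein has 1 pooled value, and the depth of each library limits every concentration to counting error that is only inferred from value steps.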
